A study of Mus musculus with 2 samples.

Results

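The genes described here are 10 genes that neurons use to build and guide their axons: *Tubb3*, *Stmn2*, *Stmn3*, *Gap43*, *Nefl*, *Nefm*, *Ina*, *Sncg*, *Elavl4* and *Dcx*. They were taken as a list by name, 10 of the 31053 genes in the count tables, and their unique molecular identifiers (UMIs, which stand for single captured RNA molecules) were counted in each cell class of the embryonic mouse eye. The 2 libraries were 3′ single cell libraries from e13.5 eye cups from which the cornea, lens and optic nerve had been taken away, each made from 3 pooled samples. The control was *Myrf* fl/fl, which carries 2 floxed *Myrf* alleles and no Cre, and the mutant was *Rx>cre* *Myrf* fl/fl, in which a Cre transgene under *Rx* regulation acts in the early eye field, from which retina and retinal pigment epithelium (RPE) both arise. With 1 library per genotype there was no replicate, so no p-value is given, and every interval is a 95% interval that covers counting error only. A difference between the genotypes cannot be told apart from a difference between these libraries.

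Axons hold their shape through microtubules and neurofilaments and grow at their tips through growth cones, and newborn neurons switch on the genes for these parts soon after their last division. In the retina at this stage the ganglion cells, the neurons whose axons form the optic nerve, are among the first neurons to be born. *Tubb3* encodes a neuronal tubulin, *Stmn2* and *Stmn3* encode stathmins that bind tubulin and regulate microtubule turnover, and *Dcx* encodes doublecortin, which stabilises microtubules. *Nefl*, *Nefm* and *Ina* encode the neurofilament light and medium chains and alpha-internexin, which assemble into neurofilaments. *Gap43* encodes a growth cone membrane protein, *Sncg* encodes gamma-synuclein, an abundant protein of ganglion cells, and *Elavl4* encodes an RNA-binding protein that stabilises neuronal messages.

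The control held 6039 barcodes and 63483835 UMIs and the mutant 6754 barcodes and 75228861 UMIs, of which 5468 and 6300 cells were kept, with medians of 11332 and 11154 UMIs. Clustering without the 10 genes gave 28 clusters, which markers that exclude the 10 genes placed in 13 classes, with 6 clusters left unnamed. The libraries shared 72 barcodes, of which 67 were kept, and 57 of these lay in 1 unnamed cluster that held 39 control and 35 mutant UMIs of the list, so that 7 control and 6 mutant cells in named classes carried a shared barcode. The deleted gene *Myrf* had 155 UMIs in RPE-like control cells and 30 in RPE-like mutant cells, or 74.1 and 20.1 UMIs per 1000000 UMIs of the class (counts per 1000000, CPM), a log2 ratio of -1.85 (-2.50 to -1.31). The counts come from 3′ ends, and whether the deleted part includes them is not stated in the sources used here.

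The ganglion cell-like class, 1 cluster of 180 control and 237 mutant cells, was checked against 9 markers. *Isl1* and *Pou4f2*, transcription factors of ganglion cells, were found in 98.9% and 95% of its control cells and in 100% and 94.1% of its mutant cells. Of the 9 markers, 8 were found in the control and 9 in the mutant, *Pou4f3* being at 0 in the control. Of markers of peripheral neurons, *Chrna3* had 574 and 740 UMIs and *Hand2* had none in either library.

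On GRCm38 with the GENCODE M21 annotation, the genes lie on chromosomes 2 (*Stmn3*, 181306459 to 181314500), 3 (*Stmn2*, 8509360 to 8561606), 4 (*Elavl4*, 110203722 to 110351909), 8 (*Tubb3*, 123411424 to 123422015), 14, 16 (*Gap43*, 42248442 to 42340651), 19 (*Ina*, 47014698 to 47025327) and X (*Dcx*, 143855842 to 143933311). Chromosome 14 holds *Sncg* (34370274 to 34374789), *Nefl* (68083863 to 68089095, plus strand) and *Nefm* (68082590 to 68124846, minus strand). The 5233 bases of *Nefl* lie wholly within the annotated span of *Nefm* on the other strand, and whether counting used strand is not stated in the sources used here. *Tubb3* lies wholly within the long gene model *Gm20388* on the same strand, which had 0 UMIs in both libraries. RefSeq promoters of the 250 bases before a start site (GRCm38.p6) were at hand for 6 of the 10 genes, 10 promoters in all, and the 4 of *Elavl4*, *Stmn3* and *Ina* that touch no annotated exon are shown because these 3 genes, which share no chromosome, all stood highest in the same cell class. Each is printed 5′ to 3′ on the gene's strand, with capitals marking E-boxes, the kind of short site that basic helix-loop-helix factors bind, here CAGCTG, which reads the same on both strands, then CAGATG, which the opposite strand reads as CATCTG, and last CAGGTG, which the opposite strand reads as CACCTG.
*Elavl4*, first start, chr4:110287528-110287777, minus strand: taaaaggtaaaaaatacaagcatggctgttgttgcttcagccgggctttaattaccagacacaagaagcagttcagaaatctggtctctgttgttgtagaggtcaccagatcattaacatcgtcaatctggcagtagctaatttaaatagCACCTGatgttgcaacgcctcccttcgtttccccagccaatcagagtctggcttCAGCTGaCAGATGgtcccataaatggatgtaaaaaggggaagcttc
*Elavl4*, second start, chr4:110351912-110352161, minus strand: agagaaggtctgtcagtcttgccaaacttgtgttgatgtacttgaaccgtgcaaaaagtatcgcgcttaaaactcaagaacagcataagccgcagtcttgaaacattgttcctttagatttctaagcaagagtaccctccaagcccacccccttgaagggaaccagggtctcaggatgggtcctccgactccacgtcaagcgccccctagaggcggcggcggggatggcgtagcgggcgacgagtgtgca
*Stmn3*, chr2:181314501-181314750, minus strand: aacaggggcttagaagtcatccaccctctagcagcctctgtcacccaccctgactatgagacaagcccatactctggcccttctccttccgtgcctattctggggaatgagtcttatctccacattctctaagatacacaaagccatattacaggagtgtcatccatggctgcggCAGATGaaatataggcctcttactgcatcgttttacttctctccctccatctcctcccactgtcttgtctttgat
*Ina*, chr19:47014431-47014680, plus strand: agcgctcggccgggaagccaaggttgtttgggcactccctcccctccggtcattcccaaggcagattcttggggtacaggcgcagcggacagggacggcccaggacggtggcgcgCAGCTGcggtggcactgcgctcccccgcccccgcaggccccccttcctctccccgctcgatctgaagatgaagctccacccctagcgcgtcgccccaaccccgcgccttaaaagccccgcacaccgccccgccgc

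The first *Elavl4* promoter held all 3 E-box forms, 1 each, with CAGCTG and CAGATG separated by a single base, and the second held none. Of the other 2 *Elavl4* promoters, 1 overlaps the first and holds the same 3 copies, and 1 holds a single CAGATG. The *Stmn3* promoter held 1 CAGATG and the *Ina* promoter 1 CAGCTG. Over all 32851 promoters of this length on both strands, CAGCTG was in 13%, CAGATG in 14.4% and CAGGTG in 17.2%, against 3, 5 and 2 of the 10 promoters of the list, in which alternative starts of 1 gene overlap. TATAAA (or TTTATA), the core of the TATA box, was in 2 of the 10, overlapping promoters of *Dcx* that share the same copy, and in 12.4% of all, and TTCAGCACC (or GGTGCTGAA), part of the site through which the repressor REST keeps neuronal genes silent in other cells, was in 0 of the 10 and in 0.301% of all. A match is a description of the letters and not a bound site.

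Ganglion cell-like cells held most of the UMIs of the list in both libraries. The kept cells had 76779 UMIs of the 10 genes in the control and 101460 in the mutant, of which ganglion cell-like cells held 51543, or 67.1% (66.8% to 67.5%), and 68903, or 67.9% (67.6% to 68.2%), while making up 3.29% and 3.76% of the cells. Neurogenic precursor-like cells, the *Atoh7*-expressing cells between progenitors and neurons, held 10.9% and 9.58%, and amacrine or horizontal-like cells, which are interneurons, held 6.92% and 6.19%. Retinal progenitor-like cells, which made up 29.8% and 27.2% of the cells, held 2.33% and 2.05%. A shallow unnamed cluster of 191 control and 282 mutant cells, with medians of 1531 and 1794.5 UMIs, held a further 6.71% and 9.05%, with 7 of the 9 ganglion cell markers raised in it and 5 of the 10 genes among its first 6 leading genes by fold. It was not counted as ganglion cell-like.

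The number of the 10 genes seen in a cell separated the neurons from the other classes. With every cell thinned to 3000 UMIs, the median ganglion cell-like cell showed 8 of the 10 genes in both libraries, the median amacrine or horizontal-like cell 4, and the median precursor-like cell 1 in the control and 2 in the mutant, against 0 in the other classes. No ganglion or amacrine or horizontal-like cell lacked all 10, whereas 95.5% and 92.0% of red blood cell-like cells did. Unthinned, *Tubb3* had a UMI in 100% of ganglion cell-like cells of both libraries (medians of 16668.5 and 15596 UMIs) and in 10.5% and 12.9% of red blood cell-like cells (medians of 22489 and 22723.5 UMIs). Thinned, those red blood cell-like shares were 3.35% and 3.15%.

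**Figure D1:**
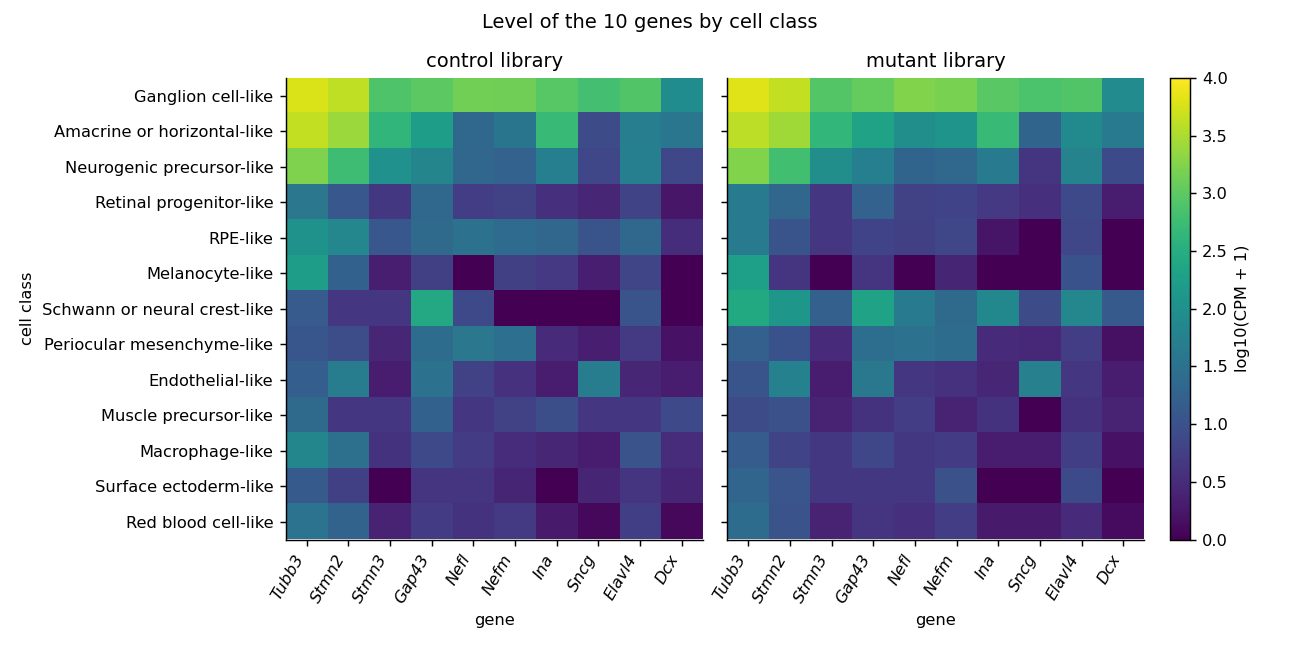
Heat maps of the level of each of the 10 genes (columns) in each of 13 cell classes (rows) in the control (left) and mutant (right) library, coloured by log10 of CPM plus 1, to be compared down a column. Every column is brightest in ganglion cell-like cells, from 86.0 CPM for *Dcx* to 6009 CPM for *Tubb3* in the control, and the mutant Schwann or neural crest-like row and control RPE-like row are brighter than their counterparts for all or most genes.

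All 10 genes stood highest in ganglion cell-like cells, in both libraries, also after thinning. Since 3′ counts of different genes are not per length, each gene is set against its own level in other classes. Among the microtubule genes, *Tubb3* stood at 6009 and 6336 CPM in control and mutant ganglion cell-like cells, at 4266 and 3981 CPM in amacrine or horizontal-like cells, at 1674 and 1771 CPM in precursor-like cells and at 37.1 and 44.5 CPM in progenitor-like cells. *Stmn2* stood at 4108 and 4222 CPM in ganglion cell-like cells and at 11.2 and 19.7 CPM in progenitor-like cells. Both genes were also seen widely in precursor-like cells, with *Tubb3* in 77.0% and 82.7% of thinned precursor-like cells and *Stmn2* in 39.4% and 46.5%. *Stmn3* stood at 782 and 845 CPM in ganglion cell-like cells and at 421 and 440 CPM in amacrine or horizontal-like cells. *Dcx*, the gene of the list with the fewest UMIs (383 and 480 in all kept cells), stood at 86.0 and 85.4 CPM and showed in 21.6% and 19.9% of thinned ganglion cell-like cells.

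The neurofilament genes and *Sncg* were held more tightly. *Nefl* stood at 1418 and 1760 CPM in ganglion cell-like cells, with a UMI in 84.4% and 82.7% of them, and at 20.01 and 18.44 CPM in precursor-like cells. *Nefm* stood at 1336 and 1557 CPM, and at 17.2 and 21.7 CPM in precursor-like cells. *Ina* stood at 926 and 960 CPM, and at 501 and 495 CPM in amacrine or horizontal-like cells, so that the third neurofilament gene was shared with interneurons where the other 2 were nearly not. *Sncg* stood at 638 and 728 CPM and was the least uniform of the abundant members within the class, with a UMI in 68.9% and 63.7% of the cells and, thinned, in 50% and 42.8%. For red blood cell-like cells the shares were 3.35% and 4.10% for *Nefl* and 0.478% and 1.43% for *Sncg*.

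*Gap43* stood at 981 and 1129 CPM in ganglion cell-like cells. Next came amacrine or horizontal-like cells, at 172 and 200 CPM, and the Schwann or neural crest-like class, at 254 and 200 CPM, whose counting intervals overlapped in both libraries. *Elavl4* stood at 828 and 829 CPM in ganglion cell-like cells, and in the control its next levels, 52.3 CPM in precursor-like and 49.8 CPM in amacrine or horizontal-like cells, lay within counting error of each other.

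The list fell into 3 grades of restriction when amacrine or horizontal-like cells were set against ganglion cell-like cells. In control and mutant, their level as a share of the gene's own ganglion cell-like level was 71.0% and 62.8% for *Tubb3*, 61.0% and 63.6% for *Stmn2*, 53.8% and 52.0% for *Stmn3*, 54.1% and 51.6% for *Ina* and 42.1% and 50.1% for *Dcx*. *Gap43* lay between, at 17.5% and 17.7%. The remaining 4 were lower, with *Elavl4* at 6.01% and 9.55%, *Nefm* at 2.60% and 7.50%, *Nefl* at 1.49% and 5.30% and *Sncg* at 1.18% and 2.50%. The microtubule genes and *Ina* were thus well represented in both kinds of neuron, and *Nefl*, *Nefm* and *Sncg* much less so in the interneurons.

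Precursor-like cells gave another order. *Tubb3* reached 27.9% and 28.0% of its ganglion cell-like level in them, *Stmn2* 13.8% and 14.4%, and *Stmn3* 13.54% and 10.94%. *Dcx*, *Gap43*, *Elavl4* and *Ina* lay between 4.56% and 8.06% over both libraries. *Nefl* reached 1.41% (1.09% to 1.80%) and 1.05% (0.811% to 1.33%), *Nefm* 1.29% and 1.40%, and *Sncg* 0.965% (0.588% to 1.49%) and 0.416% (0.208% to 0.746%). Over the 10 genes, 1 precursor-like cell held up to 41.5% of a gene's UMIs in this class in the control and up to 28.4% in the mutant. The tubulin and stathmin genes stood at 10.94% or more of their ganglion cell-like level in precursor-like cells. *Nefl*, *Nefm* and *Sncg* stood at 1.41% or less. Both classes come from the same stage, and an order in time was not tested.

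**Figure D2:**
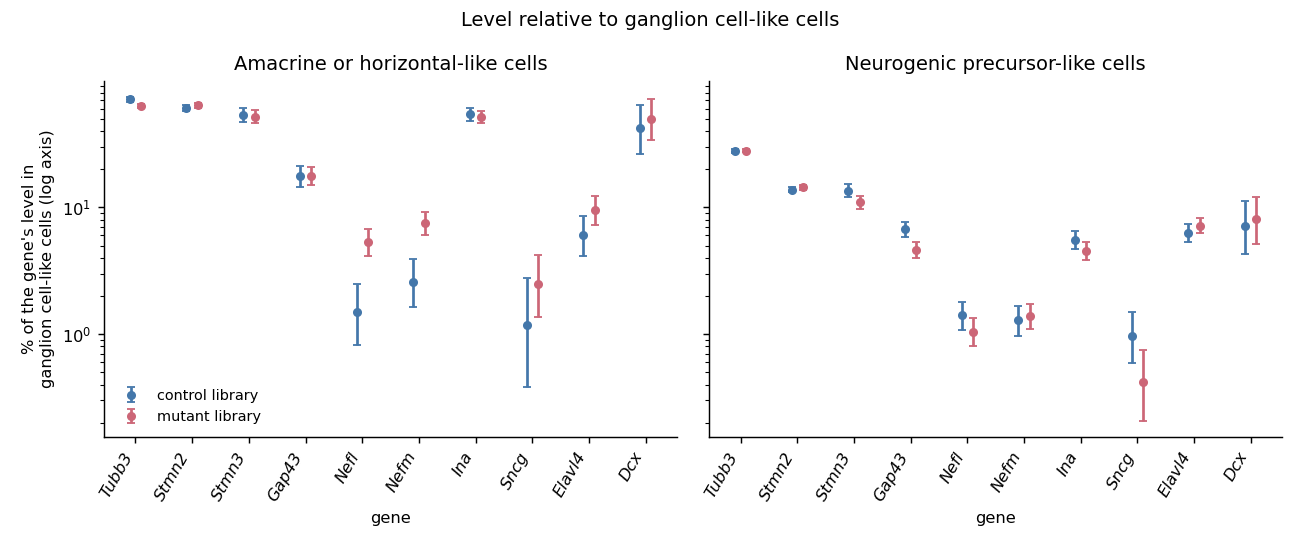
Level of each gene in amacrine or horizontal-like cells (left) and neurogenic precursor-like cells (right) as a percent of its own level in ganglion cell-like cells of the same library, on a log axis, with points for the control (blue) and mutant (red) library and bars for 95% counting intervals. *Tubb3* lies at 71.0% and 62.8% on the left and 27.9% and 28.0% on the right, and *Sncg*, *Nefl* and *Nefm* lie lowest in both panels.

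The ganglion cell-like cells were then divided by *Atoh7*, the factor that precursors express as ganglion cells are born, in cells thinned to 3000 UMIs. An *Atoh7* UMI was seen in 164 control and 219 mutant cells and none in 12 and 17. Of the latter, 8 and 11 did have an *Atoh7* UMI at full depth, so the division is by level rather than by presence. *Sncg* differed most, at 437 CPM with and 2333 CPM without an *Atoh7* UMI in the control (log2 ratio 2.43, 2.04 to 2.79) and at 476 and 2510 CPM in the mutant (2.40, 2.09 to 2.70). *Gap43* had log2 ratios of 1.94 and 1.61 and *Nefl* of 1.46 and 1.57. *Stmn3* had 1.02 and 1.49, *Nefm* 0.74 and 1.02, and *Stmn2* 0.40 and 0.73. These 6 genes had intervals above 0 in both libraries, as did 0.88% of the 5339 genes with enough UMIs in both (10 or more in each library). The median log2 ratio over all genes tested was 0.42 in the control and 0.32 in the mutant.

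*Tubb3*, *Elavl4* and *Dcx* had no interval above 0 in either library. *Tubb3* was lower in control cells without an *Atoh7* UMI, at 4972 against 6059 CPM (-0.28, -0.51 to -0.07), and in the mutant the values were 6569 and 6263 CPM (0.07, -0.10 to 0.23), a sign that turned at greater depth (-0.12 at 5000 UMIs a cell). *Elavl4* had log2 ratios of -0.08 and 0.09 with intervals across 0, and *Dcx* rested on 3 and 5 UMIs without *Atoh7*. *Ina* had 0.51 with an interval reaching 0 in the control (-0.0015 to 0.93) and 1.21 (0.87 to 1.51) in the mutant. From precursor-like cells to ganglion cell-like cells with *Atoh7*, *Tubb3* had the smallest step of the 10 genes, with log2 ratios of 1.90 and 1.84. *Nefm* had 6.32 and 5.95 and *Nefl* 5.80 and 5.89 there, while *Sncg* had 5 and 2 UMIs in the thinned precursor-like cells, too few for a firm ratio.

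**Figure D3:**
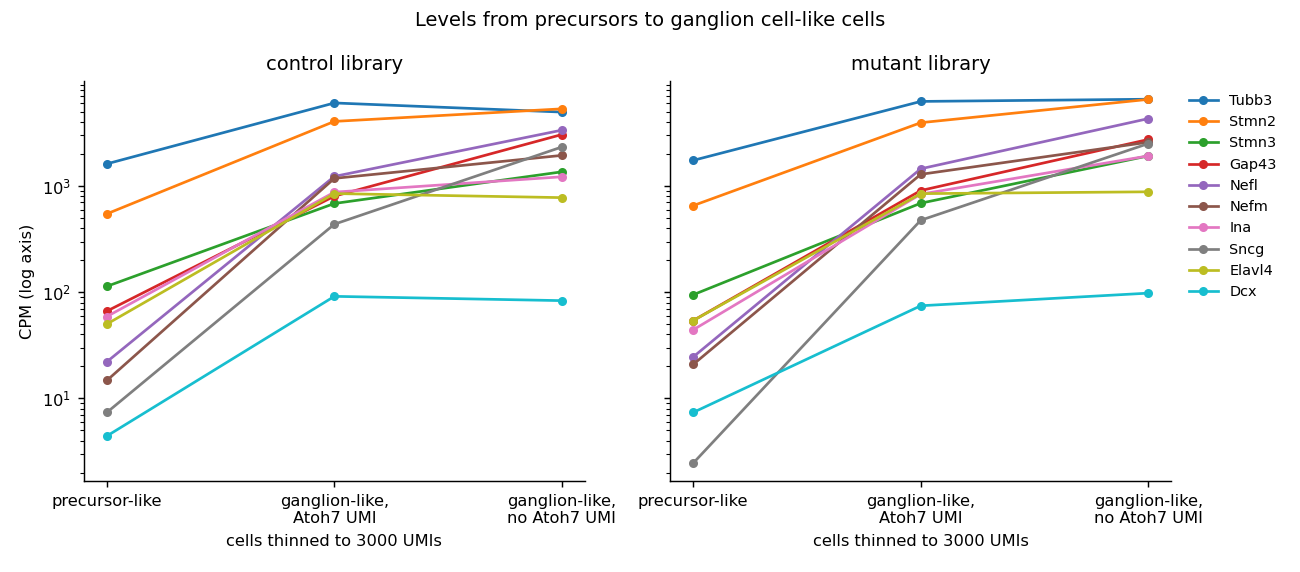
Level of each gene in CPM on a log axis in precursor-like cells and in ganglion cell-like cells with and without an *Atoh7* UMI, all thinned to 3000 UMIs, with a line per gene for the control (left) and mutant (right) library. *Tubb3* climbs in the first step and is level or lower in the second (6059 to 4972 CPM in the control), while *Sncg* climbs in both (437 to 2333 CPM in the second).

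Other genes of the neuronal cytoskeleton were less uniform than the list. Of 61 such genes in 9 sets, 37 in the control and 36 in the mutant were highest in ganglion cell-like cells and 8 and 10 in amacrine or horizontal-like cells. In ganglion cell-like cells 11 and 10 of 14 microtubule-associated genes were highest, 5 and 4 of 6 tubulins, 4 and 5 of 7 axonal motors and 7 and 7 of 10 other neuronal genes. *Stmn1*, another stathmin gene, stood at 6835 and 6987 CPM in ganglion cell-like cells and at 2204 and 2233 CPM in progenitor-like cells, a far smaller step than that of *Stmn2*. *Tuba1a*, an alpha-tubulin, stood at 11384 and 12002 CPM against 1510 and 1474 CPM. Neuronal RNA-binding genes were divided, with 3 and 2 of 6 highest in ganglion cell-like cells and 3 and 4 in amacrine or horizontal-like cells, and of the 4 intermediate filament genes *Vim*, the filament of progenitors and mesenchyme, was highest in Schwann or neural crest-like cells in the control (4309 CPM) and in melanocyte-like cells in the mutant (3614 CPM).

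The mutant and control ganglion cell-like cells differed little in these genes. Of the 10 genes, 0 differed by 2-fold or more, as did 3.51% of the 11297 genes with 10 or more UMIs over both libraries, and the log2 ratios of mutant over control ran from -0.01 to 0.31 with a median of 0.09, against -0.04 over all genes tested. *Nefl*, at 1418 and 1760 CPM, had the largest log2 ratio, 0.31 (0.26 to 0.37). *Nefm* had 0.22 (0.16 to 0.28), *Gap43* 0.20 (0.13 to 0.27) and *Sncg* 0.19 (0.10 to 0.27). *Tubb3* had 0.08 (0.05 to 0.10), *Stmn3* 0.11 (0.03 to 0.19) and *Stmn2* 0.04 (0.01 to 0.07). *Ina*, *Elavl4* and *Dcx* had intervals across 0. The 7 intervals above 0 compare with 3.18% of all genes tested.

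The differences were largest in the deepest cells. In ganglion cell-like cells over 20000 UMIs, 34 control and 32 mutant cells, all 10 genes were higher in the mutant, against 47.5% of the 8535 genes tested there, and all 10 intervals lay above 0, against 4.21%. Their median log2 ratio was 0.54. *Sncg* stood at 1085 and 2108 CPM in these cells (0.96, 0.84 to 1.08), *Nefl* at 2070 and 3732 CPM (0.85, 0.76 to 0.94) and *Nefm* at 1735 and 2911 CPM (0.75, 0.65 to 0.85). *Tubb3* had 0.14 (0.08 to 0.20). In the cells of 20000 UMIs or fewer, 146 control and 205 mutant cells, 4 genes stood higher in the mutant, where 44.2% of all genes tested did, and 6 lower, for a median of -0.03. *Sncg* was lower in the mutant at 479 and 403 CPM (-0.25, -0.37 to -0.13) while *Nefl* was still higher (0.13, 0.06 to 0.20). *Sncg*, *Nefl* and *Gap43*, which were among the 4 genes that differed most in the deep cells, were also those with the largest ratios by *Atoh7* in the control. An *Atoh7* UMI was seen in 94.1% of the 34 control and 87.5% of the 32 mutant deep cells, shares that differ by few cells. The ganglion cell markers summed to 2457 and 2722 CPM in the deep cells, with 8 and 9 of 9 found. Among them *Rbpms*, an RNA-binding protein of ganglion cells, stood at 162 and 302 CPM, and the transcription factor genes *Pou4f1* at 34.1 and 73.1, *Ebf3* at 70.8 and 134 and *Nhlh2* at 101 and 205 CPM. *Pou4f3* had 0 and 2 UMIs, while *Isl1* stood at 1173 and 1029, *Pou4f2* at 188 and 177 and *Eya2* at 134 and 126 CPM. The part of *Atoh7* and of these markers in the difference was not tested.

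**Figure D4:**
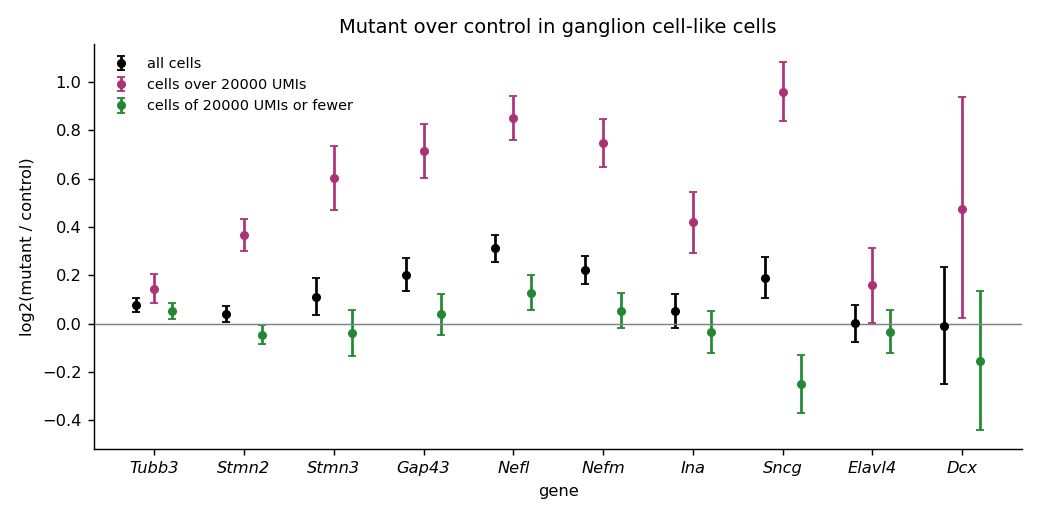
Log2 ratio of mutant over control for each gene in all ganglion cell-like cells (black), in those over 20000 UMIs (purple) and in those of 20000 UMIs or fewer (green), with bars for 95% counting intervals and a line at 0. The purple points lie above 0 for all 10 genes, highest for *Sncg* at 0.96, and the green points scatter about 0, lowest for *Sncg* at -0.25.

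Among the 61 other cytoskeleton genes, 58 had enough UMIs in ganglion cell-like cells, of which 33 were lower and 25 higher in the mutant (median log2 ratio -0.04), where 56.0% of all genes tested were lower. Among the 58, 8 intervals lay below 0, against 5.15% of all genes tested, and 10 above 0, against 3.18%. *Prph*, which encodes peripherin and is named here after its values were seen, was the 1 gene of these past 2-fold, at 21 and 72 UMIs or 6.97 and 19.3 CPM (1.42, 0.75 to 2.24). *Tuba1a* had 0.08 (0.06 to 0.10) and *Stmn1* 0.03 (0.01 to 0.06), while *Actb*, encoding beta-actin, had -0.20 (-0.23 to -0.18). The difference between the list and these other genes was not tested.

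In precursor-like cells 5 of the 10 genes were higher and 5 lower in the mutant, where 55.4% of all genes tested were lower. Of the 10, 0 were past 2-fold, where 3.5% of all genes tested were. *Tubb3* had a log2 ratio of 0.08 (0.03 to 0.13), the same as in ganglion cell-like cells, and *Stmn2* had 0.10 (0.01 to 0.19). These 2 intervals lay above 0, as did 3.37% of all genes tested. The interval of *Gap43* (-0.33, -0.62 to -0.04) lay below 0, as did 5.13%. In progenitor-like cells 8 of the 10 genes were higher and 2 lower, where 56.1% of all genes tested were lower. Of the 10, 0 were past 2-fold, where 2.89% of all genes tested were. The intervals of *Stmn2* and *Tubb3* (0.27, 0.12 to 0.41) lay above 0, as did 5.26% of all genes tested, and that of *Gap43* (-0.31, -0.53 to -0.10) below 0, as did 9.14%. *Stmn2* had 217 and 377 UMIs, or 11.2 and 19.7 CPM (0.81, 0.57 to 1.06), with a UMI in 10.6% and 13.1% of cells and, thinned, in 4.66% and 4.71%. The thinned shares of progenitor-like cells with *Stmn2* were thus alike where the summed levels were not. A single mutant cell held 96 of the 852 *Tubb3* UMIs and 48 of the 377 *Stmn2* UMIs. Without the cell richest in the list in each library, 3 of the 10 intervals lay above 0. Without cells with 5 or more of the 10 genes, 1 did.

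In amacrine or horizontal-like cells 3 genes were 2-fold or more higher in the mutant, where 2.97% of all genes tested were. *Nefl* had 14 and 72 UMIs (log2 ratio 2.06, 1.31 to 3.08), *Nefm* 23 and 90 (1.70, 1.08 to 2.48) and *Sncg* 5 and 14 (1.10, -0.29 to 3.09). The share of cells with a UMI was close, at 17.5% and 19.5% for *Nefl* and at 23.8% and 22.0% for *Nefm*. A single mutant cell, the deepest of 82 at 29994 UMIs, held 57 of the 90 *Nefm* UMIs and 26 of the 72 *Nefl* UMIs and had UMIs of 6 of the 9 ganglion cell markers. Without the cell richest in the list in each library, *Nefm* had 0.37 (-0.43 to 1.24) and *Nefl* 1.46 (0.64 to 2.50).

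RPE-like cells, the pigmented layer in which *Myrf* was read above, had few UMIs of the list, 673 in 257 control cells and 119 in 152 mutant cells, which is 0.877% and 0.117% of the list in each library. All 9 genes with 10 or more UMIs were 2-fold or more lower in the mutant, where 4.52% of the 11232 genes tested were. Their median log2 ratio was -1.99. *Tubb3* had 229 and 65 UMIs (109.5 and 43.5 CPM, -1.32, -1.75 to -0.93), *Stmn2* 149 and 15 (-2.74, -3.70 to -2.06), *Nefl* 63 and 7 (-2.52, -4.06 to -1.56) and *Ina* 41 and 1 (-3.91, -10.2 to -2.31). *Sncg* had 21 control UMIs and 0 mutant UMIs, at least 5.00-fold higher in the control against the level that 3 UMIs over the mutant class would give, taking the 21 as exact, while the counting interval of the log2 ratio ended at -1.90.

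Most of those UMIs came from 1 control cell. It had 38946 UMIs, the most of the 257 cells, whose median was 3919, and it held 463 of the 673 control UMIs of the list, or 68.8%, where the next cell held 52. All 10 genes were seen in it, among them 128 UMIs of *Tubb3*, 121 of *Stmn2*, 56 of *Nefl* and 20 of the 21 of *Sncg*. It also had UMIs of all 11 RPE markers, 401 in sum, and of 8 of the 9 ganglion cell markers, 52 in sum. The doublet caller did not mark it, and whether its barcode held more than 1 cell was not tested. For 8 of 9 genes in the control more than 50% of the RPE-like UMIs lay in 1 cell.

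Without the cell richest in the list in each library, the RPE-like median log2 ratio was -0.52. Of 8 genes with enough UMIs, 5 were lower and 3 higher, where 54.1% of all genes tested were lower. Of the 8, 2 genes, *Tubb3* and *Ina* (9 and 1 UMIs, -1.83, -8.13 to 0.18), were 2-fold or more lower, where 4.29% of all genes tested were. *Tubb3* alone kept an interval below 0, at 101 and 32 UMIs (-1.13, -1.79 to -0.58), where 8.03% of all genes tested had one. The mutant cell left out held 33 of the 65 mutant *Tubb3* UMIs, so this ratio depends on its removal too. Leaving out the cells with 5 or more of the 10 genes, 3 in the control and 0 in the mutant, left 7 genes with a median of -0.15. Of these, 4 were lower and 3 higher, where 53.6% of all genes tested were lower. None of the 7 was 2-fold or more lower, as 4.3% of all genes tested were, and none had an interval below 0, as 7.99% did. With all RPE-like cells kept, the control cell of 38946 UMIs included, 47 of the 61 other cytoskeleton genes had enough UMIs. Of these, 30 were lower and 17 higher, where 54.5% of all genes tested were lower, with a median of -0.12. Of the 47, 8 were 2-fold or more lower and 13 had intervals below 0, against the 4.52% given above and 8.24% of all genes tested. These counts are not given without that control cell, and its part in them was not tested.

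**Figure D5:**
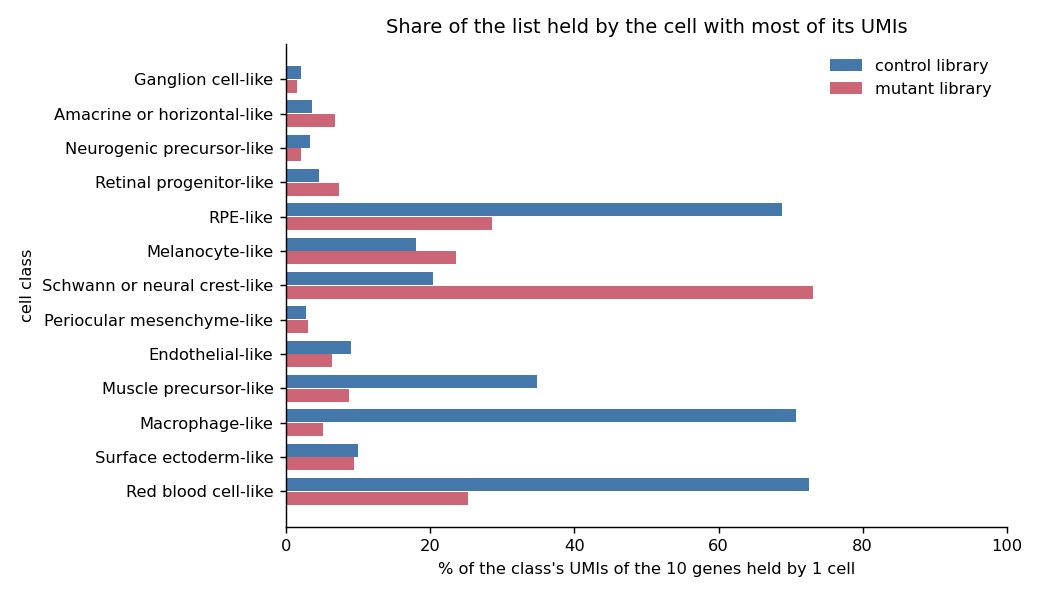
Percent of a class's UMIs of the 10 genes that was held by the cell richest in them, as bars from 0 for the control (blue) and mutant (red) library in 13 classes. In ganglion cell-like cells 1 cell held 2.09% and 1.52%, and in RPE-like cells of the control 68.8%.

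The same concentration was seen in other classes that are not neuronal, in either library. A mutant Schwann or neural crest-like cell of 30859 UMIs, the deepest of 38, held 346 of the 473 UMIs of the list in its class, 139 of the 149 for *Tubb3*, with 6 of 9 ganglion cell markers and 8 of 8 markers of its own class. This class had 7 genes 2-fold or more higher in the mutant, where 3.98% of all genes tested were, and without the cell richest in the list in each library only 2 genes had enough UMIs, neither of them past 2-fold, with *Tubb3* at 4 and 10 UMIs. A control macrophage-like cell of 36750 UMIs held 160 of 226, with *Tubb3* and *Stmn2* 2-fold or more lower in the mutant, where 3.61% of all genes tested were. A control red blood cell-like cell held 209 of 288, and a mutant one 131 of 518. In ganglion cell-like cells no cell held more than 2.09% of the class's UMIs of the list.

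Some members were nevertheless found in non-neuronal classes over many cells and in both libraries, 1 or 2 at a time. A cluster of periocular mesenchyme-like cells led by *Osr2*, *Foxl2*, *Tbx22* and *Alx1*, the mesenchyme being the connective tissue precursor around the eye, had *Nefl* at 231 and 162 CPM, in 80 of 143 control and 94 of 181 mutant cells, and *Nefm* at 148 and 126 CPM, in 59 and 68 cells. Of the cells with *Nefl*, 50 and 51 also had *Nefm* and only 10 and 12 had *Tubb3*. The other 4 mesenchyme-like clusters had *Nefl* between 2.16 and 21.1 CPM. Most of the cells with *Nefl* thus also had *Nefm*, and most had no *Tubb3* UMI.

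Endothelial-like cells, which line vessels, had *Sncg* at 46.5 and 54.4 CPM, in 32.4% and 33.8% of cells, and *Stmn2* at 49.3 and 57.2 CPM, in 23.4% and 22.3%. Of their *Sncg* cells, 47 and 50 in number, 8 and 3 had *Tubb3*. In red blood cell-like cells *Sncg* was in 0.478% and 1.43% of cells and *Stmn2* in 5.74% and 8.40%, at medians of 22489 and 22723.5 UMIs a cell against 6510 and 6156.5 in endothelial-like cells. Endothelial-like cells were the class with the second highest level of *Sncg* in both libraries.

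*Gap43* was in 77.3% and 71.1% of Schwann or neural crest-like cells, glial precursors along nerves, at 254 and 200 CPM, and 2 and 6 of those 17 and 27 cells had *Tubb3*. *Tubb3* was in 70.6% and 72.0% of melanocyte-like cells, the pigment cells of neural crest origin, at 165 and 180 CPM, and 3 and 1 of those 24 and 18 cells had *Stmn2*. Upstream of *Tubb3* on the same strand lies *Mc1r*, a melanocyte receptor gene looked at after these values were seen (chromosome 8, 123407107 to 123410744), which ends 679 bases before *Tubb3* begins. It had 6 and 11 UMIs in melanocyte-like cells, in 2 and 6 cells, all of which had *Tubb3*. How reads from past the end of *Mc1r* were assigned is not stated in the sources used here, and the part of *Mc1r* in the *Tubb3* counts was not tested.

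The genes most like the list in their pattern over 26 points, the 13 classes in both libraries, were *Barhl2* (r = 0.98), *Scrt1* (0.97), *Smpd3* (0.97), *Scrt2* (0.97), *Gdap1l1* (0.96), *Igfbpl1* (0.96), *Myt1* (0.96) and *Nfasc* (0.96), by Pearson's r with the mean of the 10 standardised profiles among 10534 genes with 500 or more UMIs. The points share libraries and classes and are few, so r is a description. Against the same mean, which includes each member, the members ran from 0.83 for *Sncg* and 0.89 for *Tubb3* to 0.97 for *Elavl4*. *Nefl* and *Nefm* were the most alike pair (r = 0.99), and *Tubb3* and *Sncg* the least (0.57).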

How the data were processed

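Eye cups of e13.5 *Myrf* fl/fl control and *Rx>cre* *Myrf* fl/fl mutant embryos gave 1 library each, from 3 pooled samples. The authors deposited filtered matrices of UMI counts, made from droplet 3′ libraries aligned to mm10 (GRCm38). The submitters' processing notes name Cell Ranger 7.1.0 and Seurat 4.1.1. Whether intronic reads or strand were used is not given in the sources used here. The study's methods call cells over 2000 counts doublets, a limit not used here, since it would leave 3 control and 0 mutant ganglion cell-like cells.

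A barcode was kept with at least 200 genes and at most 15% of UMIs from mitochondrial genes, and doublets were called with Scrublet in scanpy 1.11.5 (expected rate 5%), which marked 0.924% and 1.16%. Cells were integrated and clustered in Seurat 5.3.0 (R 4.3.3; 2000 variable features less the 10 genes and the 61 other cytoskeleton genes, 30 components, resolution 0.8). A cluster was named when its markers scored at least 0.75 and 0.25 above the next class, with at least 3 of them raised. Its 10 leading genes by fold could not hold more markers of another class than of its own. A shallow cluster, with a median under 1/3 of the library's median UMIs, needed a marker of its own among those 10. The shallow unnamed cluster described above failed this last rule. UMIs were summed per class and library and given as CPM of the class total, with exact Poisson intervals, and shares with exact Clopper-Pearson intervals (95%). Ratios have 1 UMI added to each sum and an exact conditional binomial interval. Ratios were computed for genes with 10 or more UMIs over both libraries, and 2-fold calls are descriptions. For shares of cells, each cell was also thinned to 3000 UMIs, and shallower cells were left out, 4 control and 1 mutant ganglion cell-like, 36 and 28 precursor-like, 171 and 182 progenitor-like and 124 and 72 RPE-like cells among them. A sum of 0 was set against 3 UMIs over the class. The ratios with their intervals were tested on simulated class sums, which hold no spread between cells, and the thinning on simulated cells. Clustering, naming and doublet calls were not tested in this way. Calculations used Python 3.11.15, numpy 2.4.6, scipy 1.17.1 and pandas 2.3.3.

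Genes named are the 10 genes, *Myrf*, the markers, up to 3 genes per set of the other cytoskeleton genes (those with the most UMIs) and the 8 genes most like the list. An alternative that left out cells by other neuronal markers is not reported here. The members and lists were chosen with earlier results of these data known.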

Additional observations from a re-analysis of the deposited data

How the results depend on the processing

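No paired analysis was possible because each genotype had 1 library. Leaving out shared barcodes and counting the shallow unnamed cluster as ganglion cell-like were chosen after seeing the data. The cause of the changes below was not tested, beyond the cells that each setting removes or adds. The share of the list in ganglion cell-like cells (67.1% and 67.9%) became 66.6% and 67.2% with no doublet removal, 55.9% and 55.8% with the list among the features for clustering, 63.4% and 64.0% without cells over 20000 UMIs, 71.4% and 71.4% with a mitochondrial limit of 5%, 61.0% and 53.8% with classes set per cell, and 73.8% and 77.0% with the shallow cluster counted. Without cells over 2000 UMIs it was 1.46% in the control, with no mutant cell left and so no ratio.

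In ganglion cell-like cells the median log2 ratio (0.09) became -0.034 without cells over 20000 UMIs and 0.021 by mean log levels. The number of the 10 genes lower in the mutant (1) was 0 with no integration and with classes set per cell, 2 with the 5% mitochondrial limit, the shallow cluster or thinning, 4 by mean log levels and 6 without cells over 20000 UMIs. That last setting reversed *Stmn2* (-0.045), *Stmn3* (-0.038) and *Sncg* (-0.25), thinning reversed *Stmn2* (-0.0039), and mean log levels reversed *Stmn2* (-0.033) and *Sncg* (-0.038).

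In RPE-like cells the median (-1.99) became -0.32 without cells over 20000 UMIs, -0.74 with the 5% mitochondrial limit, -0.90 without each gene's top cell, -0.94 after thinning, where 2 genes had enough UMIs, -0.033 by mean log levels and -0.15 without cells with 5 or more of the 10 genes. The number lower (9) was 3 without cells over 2000 UMIs and with the 5% limit, 2 after thinning and 4 without cells with 5 or more of the genes. This number and the next count only genes that kept 10 or more UMIs in the setting. Such genes were 2 after thinning and 7 without cells with 5 or more of the genes. The number 2-fold or more lower (9) was 1, 2, 1, 2, 0 and 0 without cells over 20000 UMIs, without cells over 2000, with the 5% limit, without top cells, after thinning and without cells with 5 or more of the genes. Reversed values were *Stmn3* 0.63 and *Nefl* 1.34 without cells over 20000 UMIs, *Nefm* 0.026 with the 5% limit, *Nefl* 0.27 without top cells, *Nefl* 0.066 by mean log levels, and *Stmn3* 0.23, *Nefl* 0.64 and *Nefm* 0.45 without cells with 5 or more of the genes.

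Of all genes tested by *Atoh7*, 28.9% in the control and 32.8% in the mutant were lower without it. Of the 10 genes, 8 in the control and 10 in the mutant were higher without it, *Dcx* in the control only through the 1 UMI added to each sum. At 5000 UMIs and with no thinning the numbers were 8 and 8, where *Tubb3* (-0.12 and -0.19) and *Elavl4* (-0.49 and -0.39) turned negative in the mutant.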
